A study of Mus musculus with 10 samples.

Results

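The genes of glycolysis and of the response to low oxygen were examined as 1 set of 37 named genes, found in the count table by gene name among its 56748 rows. Of the 37, 2 encode glucose transporters, 9 the upper steps of glycolysis, 7 the lower steps and lactate production, 4 regulators of the pathway and lactate export, 4 hypoxia-inducible factors (HIF) and the hydroxylases that control them, and 11 other targets of HIF. All 37 had enough reads to be tested, among 16169 genes tested in all. The samples were reporter-positive cells of 3xR, a mouse embryonic stem cell line, taken at day 14, and each sample gave 1 bulk library of poly(A) RNA. There were 3 libraries of Prg4-tdTomato+ cells given Fsk (replicate numbers 1, 4 and 5), 3 of Prg4-tdTomato+ cells given DMSO, the solvent (numbers 1, 3 and 5), and 4 of Col2a1-eGFP+ cells given DMSO (numbers 1, 3, 4 and 5). All groups share the 1 line, and the labels name no allele besides the reporters. Fsk is not spelled out in the labels; it commonly abbreviates forskolin, which activates adenylyl cyclase. Nothing in the labels says what a replicate number marks or that the libraries of a group are separate cultures, and the p-values cover only the spread among these libraries, which may be technical.

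Glycolysis splits glucose into pyruvate and gains ATP without oxygen, and lactate dehydrogenase turns the pyruvate into lactate so that the pathway can go on. When oxygen is scarce, HIF alpha subunits escape the prolyl hydroxylases that mark them for destruction, enter the nucleus and switch on most genes of the pathway, together with genes for vessel growth, acid export and removal of mitochondria. Cartilage has no vessels, and HIF-1 alpha and its glycolytic targets are known there for letting chondrocytes live in low oxygen.

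Total counts ranged from 15355459 to 20408696 per library. Col2a1, the gene of the main cartilage collagen and the one for which the eGFP reporter is named, had 19.7 to 53.6 CPM (read counts scaled by library total and TMM factor) in tdTomato+ Fsk cells, 82.0 to 390 in tdTomato+ DMSO cells and 838 to 2992 in eGFP+ DMSO cells. Prg4, the gene of the joint lubricant lubricin for which the tdTomato reporter is named, had at most 2.55 CPM in any library, so this defining marker was near 0 throughout, and its ranges overlapped between the groups. Summed cell cycle genes (21 genes) differed with treatment, at 602 to 1459 CPM in tdTomato+ Fsk cells, 287 to 355 in tdTomato+ DMSO cells and 273 to 627 in eGFP+ DMSO cells. Summed markers of muscle, blood, endothelium, nerve and pluripotent cells were each at most 133 CPM in every library. In bulk samples, fewer cells with a transcript and less of it per cell cannot be told apart.

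The promoters of the genes were read for the core of the hypoxia response element, the letters ACGTG or GCGTG on either strand. RefSeq promoters of GRCm38.p6, 250 bases before to 50 bases after the transcription start, were given for 33 of the 37 genes. Slc2a3, Epas1, Ndrg1 and Bnip3l were not among them. At least 1 promoter of 30 of the 33 genes (90.9%) held the core, against 66.4% of the tested genes with a promoter in the table and 46.7% of all genes there. The exceptions were Eno2, Gpi1 and Tpi1. A gene with more promoters has more places for a match. Counted per promoter, 39 of the 51 promoters of these genes (76.5%) held the core, against 43.8% of all promoters there. The stricter form ACGTG was present for 23 of the 33 (69.7%), against 28.8% of tested genes and 21.8% of all genes. The cAMP response element TGACGTCA was present for 1 of the 33, Ldha (3.03%), against 3.47% of tested genes, and its short form TGACG, which can overlap ACGTG, for 8 of the 33 (24.2%), against 34.4% of tested genes. The promoters below belong to the 4 genes with the lowest estimates in the comparison of libraries numbered 5 with libraries numbered 1, described further on, among those with an entry. Capitals mark the hypoxia response core on either strand (CACGT and CACGC are its reverse complements).
Ankrd37 (chr8:45999801-46000100, minus strand): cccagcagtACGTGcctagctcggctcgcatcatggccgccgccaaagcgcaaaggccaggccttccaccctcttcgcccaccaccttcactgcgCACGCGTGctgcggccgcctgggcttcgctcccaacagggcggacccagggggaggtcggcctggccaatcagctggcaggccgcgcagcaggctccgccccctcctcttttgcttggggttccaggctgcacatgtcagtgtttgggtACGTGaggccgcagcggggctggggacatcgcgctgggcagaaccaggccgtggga
Adm (chr7:110627407-110627706, plus strand): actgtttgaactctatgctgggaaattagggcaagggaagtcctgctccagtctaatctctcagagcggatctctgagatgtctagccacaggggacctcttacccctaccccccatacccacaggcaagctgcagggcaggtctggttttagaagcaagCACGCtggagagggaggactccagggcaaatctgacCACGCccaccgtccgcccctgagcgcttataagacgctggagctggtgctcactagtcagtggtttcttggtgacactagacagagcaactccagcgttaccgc
Egln3 (chr12:54203825-54204124, minus strand): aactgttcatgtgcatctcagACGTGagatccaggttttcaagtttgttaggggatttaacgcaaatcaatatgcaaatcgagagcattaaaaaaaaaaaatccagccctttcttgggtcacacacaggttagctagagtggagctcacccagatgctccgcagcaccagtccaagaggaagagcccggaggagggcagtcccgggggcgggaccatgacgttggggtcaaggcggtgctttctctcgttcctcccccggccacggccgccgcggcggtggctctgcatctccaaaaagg
Car9 (chr4:43506776-43507075, plus strand): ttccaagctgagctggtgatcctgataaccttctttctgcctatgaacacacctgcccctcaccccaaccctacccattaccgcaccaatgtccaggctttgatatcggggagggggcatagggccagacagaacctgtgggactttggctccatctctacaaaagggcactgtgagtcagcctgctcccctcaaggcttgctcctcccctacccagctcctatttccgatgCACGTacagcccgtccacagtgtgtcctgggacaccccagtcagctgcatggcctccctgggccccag
Ankrd37 has 4 such cores in this window, Adm 2, and Egln3 and Car9 1 each. A match of letters is a description of the promoter and not a binding site.

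The libraries numbered 5 held far fewer reads of this set than the others, in all 3 groups. The 37 genes together made up 9196 to 11430 CPM in the 3 libraries numbered 5, against 24690 to 30560 CPM in the 3 numbered 1, 21720 to 36760 in the 2 numbered 3 and 21200 to 24560 in the 2 numbered 4, with no overlap between number 5 and any other number. For 33 of the 37 genes the lowest of the 10 libraries was one numbered 5. Of all tested genes, 25.6% have their lowest library there. Within each group, the library numbered 5 had less than the one numbered 1 for 29 of the 37 genes in all 3 groups, and more in all 3 for none. Of all tested genes, 20.6% were lower in number 5 in all 3 groups and 22.5% were higher in all 3.

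**Figure D1:**
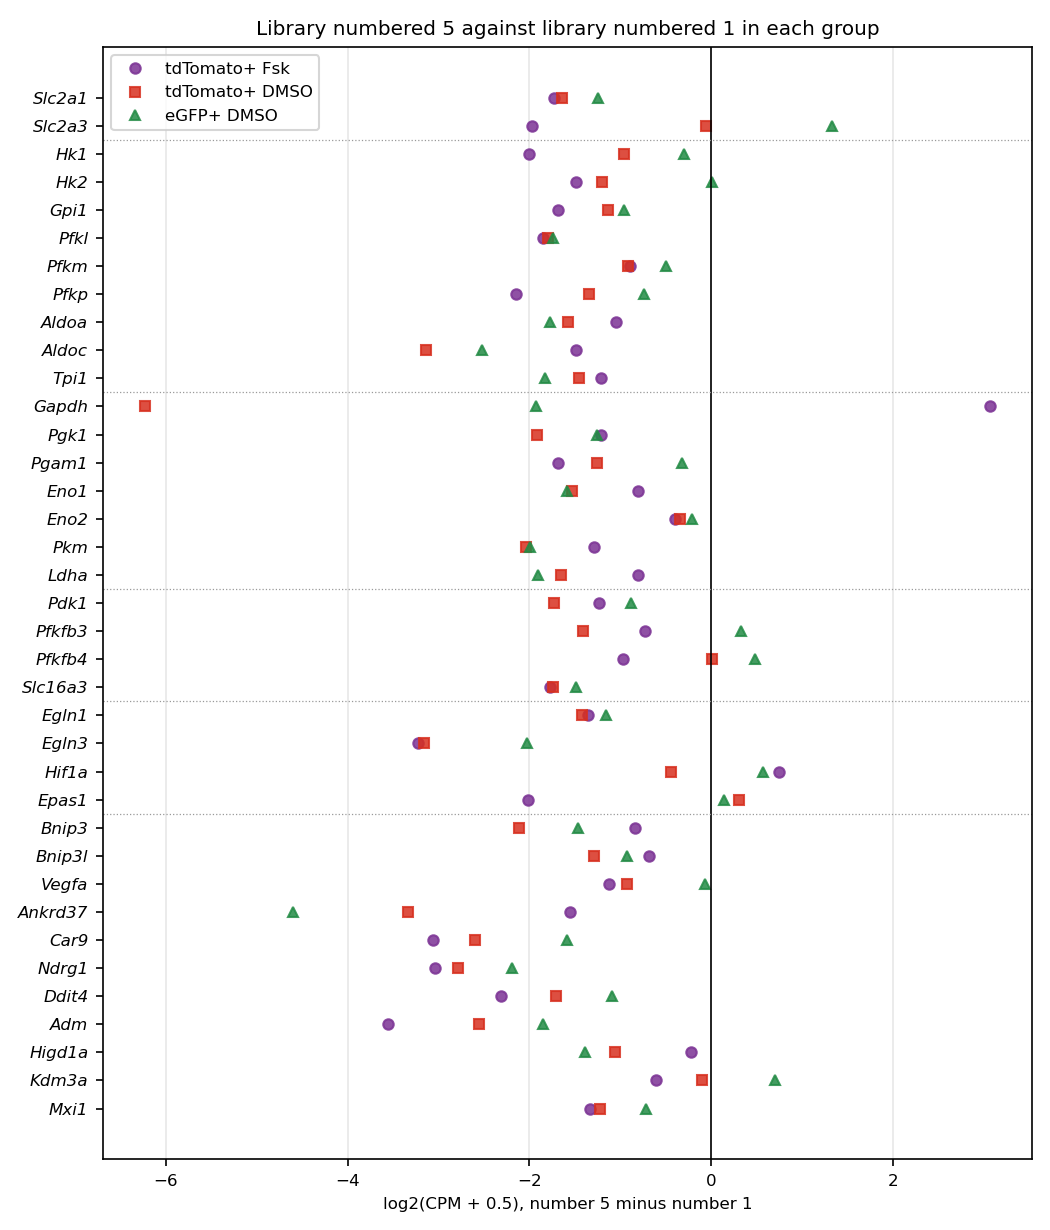
Difference between the library numbered 5 and the library numbered 1 of the same group for each of the 37 genes, on the scale of log2(CPM + 0.5); circles are tdTomato+ Fsk cells, squares tdTomato+ DMSO cells and triangles eGFP+ DMSO cells, and dotted lines separate the roles. Most points lie left of 0, with medians of -1.33, -1.45 and -1.16 in the 3 groups, while Hif1a has points on both sides and Gapdh spreads the most.

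Tested by edgeR's quasi-likelihood model with group and replicate number as terms, 21 of the 37 genes fell in libraries numbered 5 against those numbered 1 and 0 rose, at a Benjamini-Hochberg adjusted p below 0.05. Same-numbered tdTomato+ and eGFP+ DMSO libraries deviated together from their group means (correlation r = 0.617 to 0.672). The libraries of a number may therefore not be independent replicates of it. These p-values, and those per gene below, cover only the spread among these libraries and not that among further numbers. Of all tested genes 5.34% were called, 3.58% lower and 1.76% higher (579 and 284 genes). With library totals in place of TMM, fewer of all tested genes were called lower (190) than higher (392), and all 12 of the 37 that were called were lower. The estimate was negative for 36 of the 37, with a median log2 fold change of -1.33, against 0.02 over all tested genes. For 26 of the 37 the 3 libraries numbered 5 lay wholly below the 3 numbered 1, against 12.9% of all tested genes. The number of genes called rested on the tdTomato+ DMSO and eGFP+ DMSO libraries: it was 6 without the tdTomato+ DMSO library numbered 5, 7 without the one numbered 1 and 12 without the eGFP+ DMSO library numbered 5. With DESeq2 or no filter on low counts it was 27. Scaled by library totals, the median of all tested genes moves to 0.41 and that of the 37 genes to -0.92. Adm, Aldoc, Car9, Egln3, Ndrg1 and Pfkl passed in every alternative and with each library left out.

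Both glucose transporters had negative estimates and 1 of 2 passed. Slc2a1 (GLUT1, chr4:119108711-119137983, plus strand, GRCm38 in GENCODE M21, as are the gene coordinates below), the main glucose importer of many cell types, had 133, 222 and 281.5 CPM in the tdTomato+ Fsk, tdTomato+ DMSO and eGFP+ DMSO libraries numbered 5, against 444, 696 and 668 CPM in the libraries numbered 1 of the same groups. The number 5 values are all below the number 1 values, and the edgeR log2 fold change was -1.57 (SE 0.32, adjusted p = 0.0193). That call was lost with library totals (adjusted p = 0.0528), and without the tdTomato+ DMSO library numbered 5 or 1 or the eGFP+ DMSO library numbered 5. Slc2a3 (GLUT3) was lower in number 5 in both tdTomato+ groups and higher in eGFP+ cells, where it had 60.1 CPM in number 5 and 23.6 in number 1, and did not pass (log2 fold change -0.36, SE 0.51).

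Of the 9 genes of the upper steps, 6 fell and the other 3, Hk1, Hk2 and Pfkm, had estimates from -1.12 to -0.78 that did not pass. Aldoc, the brain-type aldolase, had 41.6, 19.1 and 30.7 CPM in number 5 (tdTomato+ Fsk, tdTomato+ DMSO, eGFP+ DMSO), against 117, 171.5 and 178 CPM in number 1, which is the largest change of this group of genes at a log2 fold change of -2.40 (SE 0.31, edgeR adjusted p = 0.00253). Pfkl, the liver-type phosphofructokinase of the main control step, had 135.5, 175 and 180.5 CPM in number 5 against 488, 607 and 603 CPM in number 1. Its 3 within-group differences lie close together, from -1.85 to -1.74 on the log2(CPM + 0.5) scale, and the edgeR log2 fold change was -1.79 (SE 0.25, adjusted p = 0.00325). Aldoa, the muscle-type aldolase and the second most abundant of the set per kilobase of exon, had 1387, 1279 and 1245 CPM in number 5 against 2873, 3803 and 4247 CPM in number 1 (edgeR log2 fold change -1.47, SE 0.35, adjusted p = 0.0372). The Aldoa call was lost in 8 of the 10 fits with 1 library left out, and that of Gpi1, another upper gene, in 9 of 10.

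Of the 7 genes of the lower steps and lactate production, Pgk1, Pkm and Ldha fell. Pgk1, phosphoglycerate kinase of the first ATP-yielding step (chrX:106187100-106203699, plus strand), was the most abundant gene of the set per kilobase, with 1331, 949 and 1457 CPM in number 5 against 3085, 3575 and 3481 CPM in number 1. That rank depends on exon length: Eno1 had more reads over all libraries, 583998 against 560644, on 5379 bases of exon against 2244. The number 5 values lay below all others for Pgk1, at an edgeR log2 fold change of -1.48 (SE 0.37, adjusted p = 0.0406). Ldha, lactate dehydrogenase A, had 1380, 813 and 891.5 CPM in number 5 against 2405, 2561 and 3330 CPM in number 1, with a log2 fold change of -1.47 (SE 0.36, edgeR adjusted p = 0.0393). With 1 library left out, the Pgk1 call was lost in 9 of 10 fits and the Ldha call in 8 of 10, with the estimates still negative, and both were lost with library totals. Eno1, the ubiquitous enolase and the third most abundant gene per kilobase, had 2118, 1438 and 1603 CPM in number 5 against 3699, 4163 and 4804 CPM in number 1. It was lower in number 5 in each group and missed the threshold (log2 fold change -1.33, SE 0.39, edgeR adjusted p = 0.0684). Gapdh could not be read. It had 17.1, 11.1 and 147 CPM in the tdTomato+ Fsk libraries numbered 1, 4 and 5, 617, 42.5 and 7.75 CPM in the tdTomato+ DMSO libraries numbered 1, 3 and 5, and 558, 33.4, 11.2 and 147 CPM in the eGFP+ DMSO libraries numbered 1, 3, 4 and 5, while 180 near-identical copies listed in the table took 22.1% to 93.3% of the reads of Gapdh and its copies. Copies of every other gene of the set took at most 6.53% of such reads over all libraries. The Gapdh copies held 1107 to 3351 reads per library, a narrower range than the 194 to 11840 of Gapdh itself. The cause of the spread of Gapdh was not tested. With Gapdh left out, 21 of the remaining 36 genes were called lower in number 5, with a median log2 fold change of -1.33.

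Among the regulators, Pdk1 and Slc16a3 fell and Pfkfb3 and Pfkfb4 did not pass. Slc16a3 (MCT4), a lactate exporter, had 154, 180 and 194.5 CPM in number 5 against 529, 601 and 547 CPM in number 1, all 3 groups being within a narrow range at each number (edgeR log2 fold change -1.67, SE 0.27, adjusted p = 0.00618). Pdk1, the kinase that keeps pyruvate from entering mitochondrial oxidation, had 54.5, 46.3 and 62.2 CPM in number 5 against 129, 154 and 115 CPM in number 1 (edgeR log2 fold change -1.27, SE 0.26, adjusted p = 0.0184). The 2 libraries numbered 3 also held little Pdk1, with 58.3 CPM in tdTomato+ DMSO and 45.1 in eGFP+ DMSO cells.

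Neither gene for a HIF alpha subunit passed. Hif1a (chr12:73901375-73947530, plus strand), which encodes the oxygen-regulated subunit HIF-1 alpha, had 332, 144 and 260 CPM in number 5 against 198, 196 and 175 CPM in number 1, so that number 5 was higher in tdTomato+ Fsk and eGFP+ DMSO cells and lower in tdTomato+ DMSO cells (log2 fold change 0.29, SE 0.27, 95% interval -0.30 to 0.88, edgeR adjusted p = 0.537). It was the only gene of the 37 whose highest library was one numbered 5. Hif1a protein is set mainly by its destruction, which RNA counts do not measure. Epas1, which encodes HIF-2 alpha, was rare, with 11 to 164 reads per library, and Hif1a made up 94.97% to 99.68% of the reads per kilobase of both. Both prolyl hydroxylases, themselves HIF targets, fell. Egln3 (chr12:54178981-54203860, minus strand) had 14.1, 21.7 and 38.9 CPM in number 5 against 136, 197 and 159.5 CPM in number 1, which gave the smallest adjusted p of the set (edgeR log2 fold change -2.84, SE 0.30, adjusted p = 0.00079). Egln1, the main HIF hydroxylase, moved less, with 61.5, 85.2 and 80.2 CPM in number 5 against 158, 228 and 179 CPM in number 1 (log2 fold change -1.32, SE 0.23, adjusted p = 0.00974). Egln3 therefore made up 23.65%, 25.58% and 39.55% of the reads per kilobase of both hydroxylases in number 5, against 53.75%, 53.86% and 54.58% in number 1.

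Of the 11 other HIF targets, 7 fell. Ankrd37, an ankyrin repeat protein gene, had the lowest estimate of the set, with 4.21, 2.36 and 2.68 CPM in number 5 against 13.3, 28.4 and 76.9 CPM in number 1 (edgeR log2 fold change -3.41, SE 0.51, adjusted p = 0.00467). Of all alternatives run, the call was lost only without the tdTomato+ DMSO library numbered 5 (adjusted p = 0.063). Adm, the gene of the vessel-widening peptide adrenomedullin, had 0.347, 4.07 and 6.09 CPM in number 5 against 9.46, 26.3 and 23.3 CPM in number 1 (edgeR log2 fold change -2.99, SE 0.44, adjusted p = 0.00467), and its lowest value rests on 7 reads. Libraries numbered 3 held the most Adm, with 127 CPM in tdTomato+ DMSO cells and 248 in eGFP+ DMSO cells. Ndrg1, a gene of the response to hypoxia and other stress, had 13.2, 27.4 and 29.4 CPM in number 5 against 112, 191 and 135 CPM in number 1 (edgeR log2 fold change -2.73, SE 0.29, adjusted p = 0.000855). Car9, which encodes a carbonic anhydrase at the cell surface that handles acid, had 22.3, 14.8 and 25.0 CPM in number 5 against 190, 92.3 and 76.3 CPM in number 1 (edgeR log2 fold change -2.45, SE 0.29, adjusted p = 0.00175). For all 4 genes, every number 5 value lies below every number 1 value. Bnip3 (removal of mitochondria), Ddit4 (an inhibitor of mTORC1) and Mxi1 (an antagonist of MYC) also fell. Vegfa, the main vessel growth factor, had 131, 205 and 285 CPM in number 5 against 285, 391 and 300 CPM in number 1 and did not pass (log2 fold change -0.71, SE 0.28, edgeR adjusted p = 0.148). Kdm3a, a histone demethylase gene, had the estimate nearest 0, at -0.0006 (SE 0.27).

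**Figure D2:**
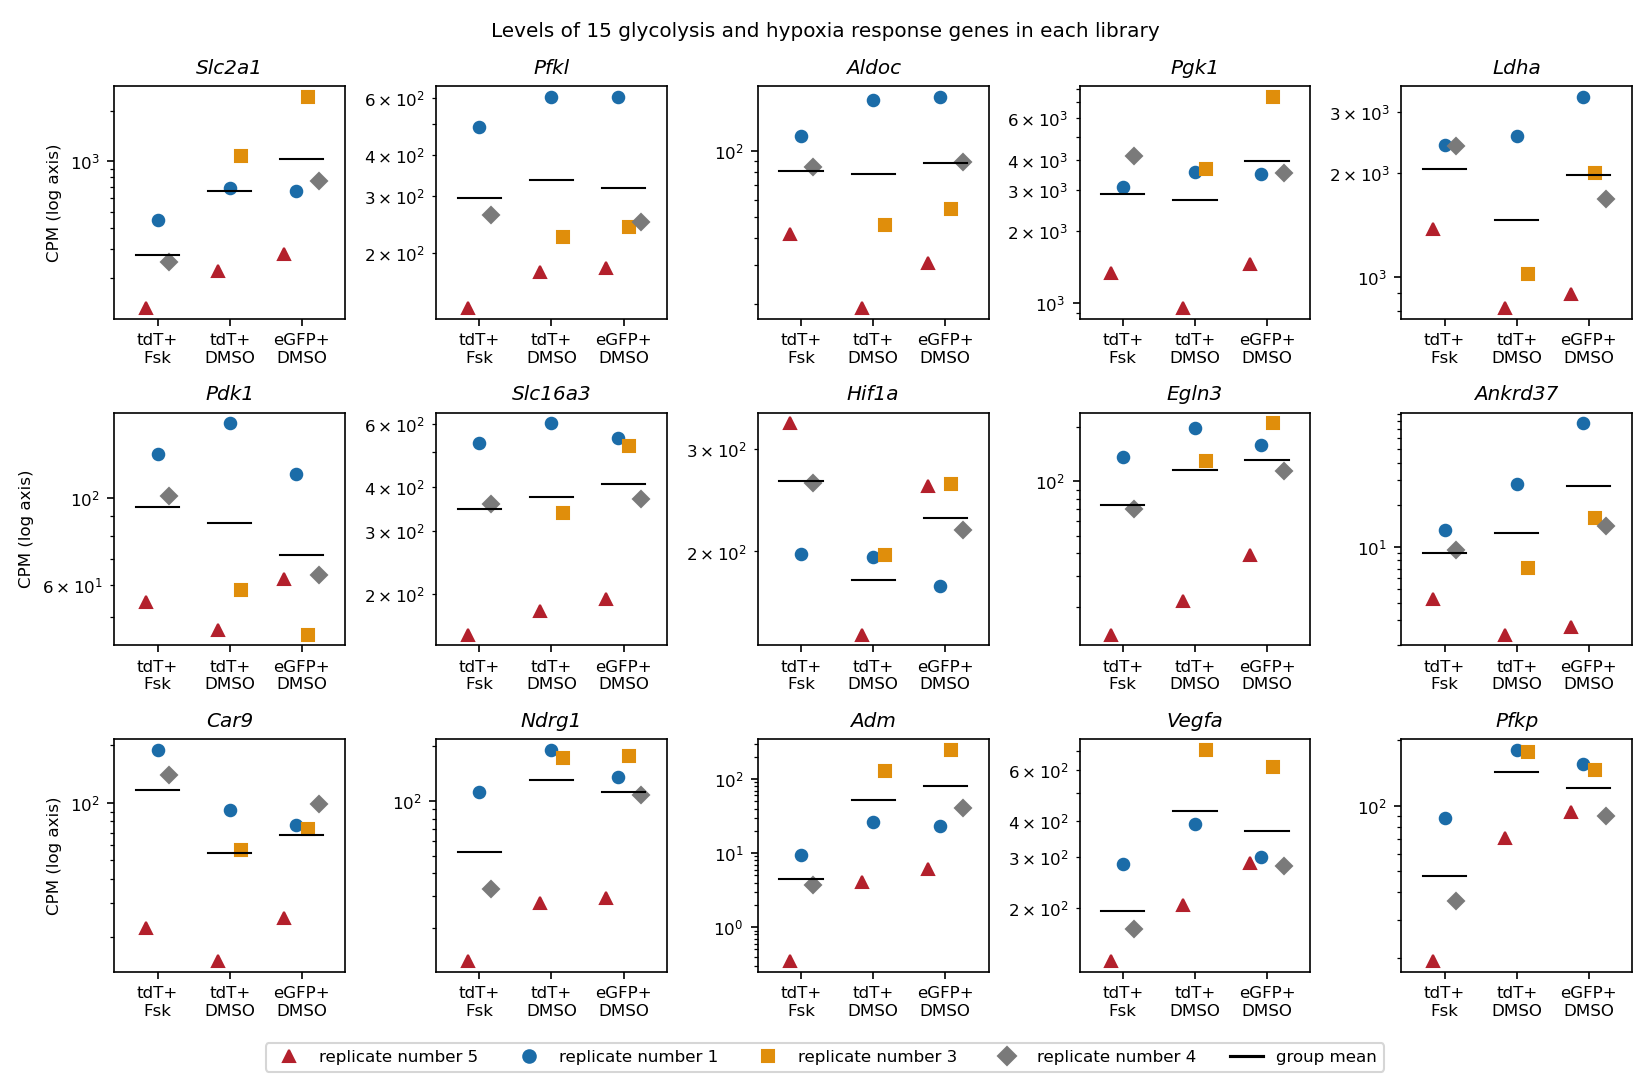
Levels of 15 of the genes in each library, in CPM on log axes that differ between panels; each point is 1 library, coloured and shaped by replicate number, with black lines at the group means. In most panels the red triangles of number 5 lie lowest in every group, while the highest Hif1a library, at 332 CPM, is a red triangle. The tdTomato+ Fsk libraries lie lowest at their number for Slc2a1, Slc16a3, Egln3, Ndrg1, Vegfa, Pfkp and Adm.

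Related genes outside the 37 were taken from lists of the same pathways. Of 44 tested genes of glycogen, pentose phosphate and further glucose metabolism, 8 fell and 1 rose in number 5 against 1 by edgeR, and 15 (34.1%) were lower in number 5 in all 3 groups. Those that fell included Pygl (liver glycogen phosphorylase, log2 fold change -3.05, adjusted p = 0.00248), Pgm1, Tkt, Gys1, Gbe1, Bsg and Pgd, and the one that rose was Slc16a7 (a monocarboxylate carrier, log2 fold change 1.48, adjusted p = 0.0472). Pygm had the largest positive estimate, 1.70, and did not pass. Of 57 further hypoxia-related genes tested, 15 fell and 1, Igfbp3, rose (log2 fold change 1.66, edgeR adjusted p = 0.0246). Nos2 had the lowest estimate (-6.39, SE 1.27), followed by Selenbp1 (-4.11, SE 0.51, edgeR adjusted p = 0.00227). Others that fell included Ret, Ppp1r3b, Ppp1r3c, Stc1, Ndufa4l2, Gys1, Mif, Gbe1, Cox4i2, Cited2, Ero1l and P4ha2. Gys1 and Gbe1, both of glycogen synthesis, stand on both lists.

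Several other measures moved with the replicate number. TMM scaling factors were 1.15 to 1.39 in number 5 and 0.863 to 1.08 in number 1. Summed tendon and joint genes (11 genes) were 1183 to 2312 CPM in number 5 and 650 to 968 CPM in number 1, with 3 of 10 tested genes called higher. Summed cartilage genes (17 genes) were 2187 to 7258 CPM in number 5 and 1100 to 3535 CPM in number 1, which overlap, with 4 of 16 called higher. From number 1 to 5 the cartilage sum went from 1100 to 2552 CPM in tdTomato+ Fsk cells and from 3535 to 7258 in eGFP+ DMSO cells. In tdTomato+ DMSO cells it fell from 2431 to 2187 CPM. Neural markers (10 genes) summed to 29.5 to 50.6 CPM in number 5 and 16.5 to 23.2 in number 1, Map2 giving most of it in number 5, with 0 to 2 of the 10 at 0 reads in number 5 and 1 to 5 in number 1. Endothelial markers (8 genes) summed to 19.9 to 59.2 CPM in number 5 and 8.33 to 18.7 in number 1, and Erg, a gene also on the tendon and joint list, gave 57.9 of the 59.2 CPM in the highest library, while Emcn, a defining marker, had at most 0.099 CPM. Cell cycle genes overlapped between the numbers. The part of these measures in the lower glycolysis and hypoxia genes was not tested.

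Between treatments and reporters, none of the 37 genes passed the threshold in any of the 3 comparisons when group was the only term of the edgeR model and low counts were filtered. This does not show that their levels were alike. The comparison of Fsk with DMSO in tdTomato+ cells asks what the treatment changed. By edgeR, 0 of the 37 were called, against 0.569% of all tested genes, and 5 of the 37, all lower with Fsk, had an unadjusted p below 0.05, against 10.4% of all tested genes in either direction. DESeq2 called 1 of the 37, Pfkfb4, and limma-voom 0. With no filter on low counts edgeR called 1, Pfkp, and 462 of all genes. With the replicate number as a block it called 2, Pfkp and Adm, both lower, and 508 of all genes. The numbers are not taken as pairing in this comparison. Yet in tdTomato+ Fsk cells too, 35 of the 37 genes were lower in number 5 than in number 1. Standard errors without the block include that spread, at 1.41 for Adm and 0.52 for Pfkp, against 0.45 and 0.31 with it. Those of Slc2a3 and Gapdh were larger with the block. The edgeR count of 0 thus depends on leaving the number out of the model. The median log2 fold change of the 37 was -0.29, against -0.03 over all tested genes. With the block it was -0.07, against -0.03, and with 1 library left out it spanned -0.73 to 0.04. A general drop of the set with Fsk is therefore not shown. By range, 1 gene of the 37 was higher in every tdTomato+ Fsk library than in every tdTomato+ DMSO library and 2 were lower, against 9.01% and 7.98% of all tested genes. Cell cycle genes moved with the treatment: 2 of 21 were called higher by edgeR and 19 lay wholly higher, with Mki67 at 23.6 to 101 CPM in tdTomato+ Fsk libraries against 0.99 to 12.4 in tdTomato+ DMSO libraries. Blood markers (9 genes) also separated, summing to 12.8 to 22.1 CPM in tdTomato+ Fsk libraries and 33.8 to 116.5 in tdTomato+ DMSO libraries, nearly all of it from Cd68 in the DMSO libraries. Of 16 tested cartilage genes 1 was called lower and 4 lay wholly lower, while 0 were called higher and 2, Matn3 and Ucma, lay wholly higher. The estimate was negative for 11 and positive for 5. With the block 3 were called lower and 2 higher. The part of these lists in the values below was not tested. Without the tdTomato+ Fsk library numbered 1, the estimates of the 5 genes described next become more negative, that of Adm to -4.70 and that of Pfkp to -2.34.

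The 5 genes with an unadjusted p below 0.05 were Pfkp, Adm, Pfkfb4, Vegfa and Eno2. Pfkp (chr13:6579768-6648777, minus strand), the platelet-type phosphofructokinase, had 87.3, 36.5 and 19.3 CPM in the tdTomato+ Fsk libraries numbered 1, 4 and 5, against 180, 175.5 and 70.8 CPM in the tdTomato+ DMSO libraries numbered 1, 3 and 5. The groups overlap, since the Fsk library numbered 1 exceeds the DMSO library numbered 5, but within numbers 1 and 5 the Fsk library was lower, with differences of -1.04 and -1.85 on the log2(CPM + 0.5) scale (log2 fold change -1.58, SE 0.52, edgeR adjusted p = 0.249). Adm had 9.46, 3.65 and 0.347 CPM in tdTomato+ Fsk libraries, against 26.3, 127 and 4.07 CPM in tdTomato+ DMSO libraries. Its log2 fold change of -3.55 (SE 1.41, edgeR adjusted p = 0.37) becomes -1.77 without the tdTomato+ DMSO library numbered 3. Pfkfb4, a kinase that makes an activator of phosphofructokinase, had 3.09, 1.74 and 1.34 CPM in tdTomato+ Fsk libraries, against 4.48, 12.6 and 4.51 CPM in tdTomato+ DMSO libraries, with no overlap (log2 fold change -1.80, SE 0.56, edgeR adjusted p = 0.205). Without the tdTomato+ DMSO library numbered 3 it is -1.13. Eno2, the neuronal enolase, had 33.0, 20.0 and 25.0 CPM in tdTomato+ Fsk libraries, against 42.3, 56.1 and 33.3 CPM in tdTomato+ DMSO libraries, and these groups do not overlap by a small margin. Vegfa had 285, 169.5 and 131 CPM in tdTomato+ Fsk libraries, against 391, 705 and 205 CPM in tdTomato+ DMSO libraries, and the groups overlap (log2 fold change -1.15, or -0.61 without the tdTomato+ DMSO library numbered 3).

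On the higher side, Hif1a had 198, 262 and 332 CPM in tdTomato+ Fsk libraries, against 196, 197 and 144 CPM in tdTomato+ DMSO libraries. The lowest Fsk library is just above the highest DMSO library, and the edgeR log2 fold change was 0.56 (SE 0.33, adjusted p = 0.611). Epas1 had the largest positive estimate, 1.35 (SE 0.73, edgeR adjusted p = 0.564), from 9.94, 1.29 and 2.08 CPM in tdTomato+ Fsk libraries, against 1.62, 1.45 and 2.12 CPM in tdTomato+ DMSO libraries. That value rests on the Fsk library numbered 1, and the estimate is -0.027 without it. The same library held 5.76 CPM of Cdh5 and 1.76 CPM of Tie1, both endothelial genes, against at most 0.618 and 0.719 CPM in any other library. Pecam1 and Kdr of the same list were also highest there, at 1.82 and 2.06 CPM. Against these, Erg was lowest there, at 6.67 CPM, and Tek, Cldn5 and Emcn were each higher in another library. The part of endothelial RNA in the Epas1 of this library was not tested. Car9 had 190, 139 and 22.3 CPM in tdTomato+ Fsk libraries, against 92.3, 57.0 and 14.8 CPM in tdTomato+ DMSO libraries, higher with Fsk within both shared numbers but overlapping between groups (log2 fold change 1.10, SE 0.73, edgeR adjusted p = 0.677). Ldha had 2405, 2388 and 1380 CPM in tdTomato+ Fsk libraries, against 2561, 1019 and 813 CPM in tdTomato+ DMSO libraries, with overlap (log2 fold change 0.49, SE 0.58). Pgk1 and Pdk1 had estimates of 0.07 and 0.14. The Gapdh estimate of -1.93 turns to 1.26 without the tdTomato+ DMSO library numbered 1 and is not interpreted, given the spread of Gapdh described above.

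**Figure D3:**
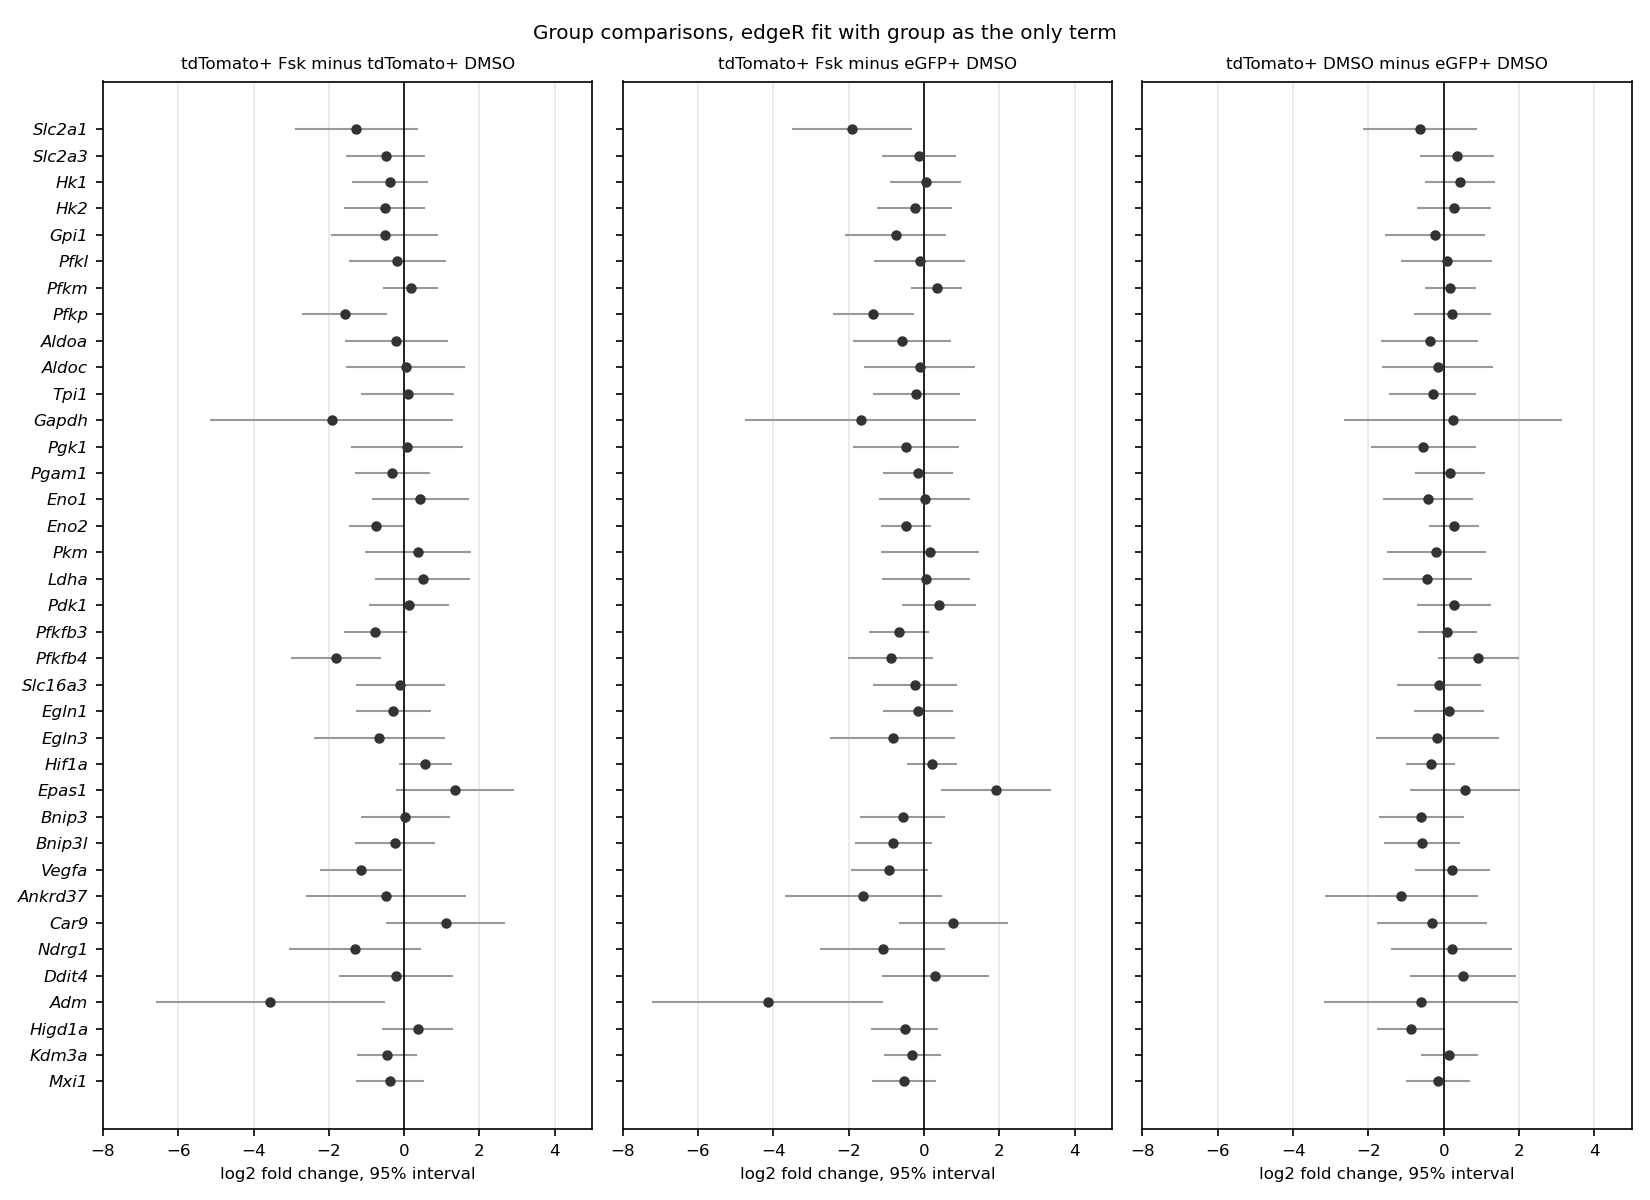
Log2 fold changes of the 37 genes in the 3 group comparisons, from the edgeR fit with group as the only term; points are estimates and bars 95% intervals. Most intervals cross 0, and the estimates for Adm with Fsk are the lowest, at -3.55 against tdTomato+ DMSO cells and -4.15 against eGFP+ DMSO cells.

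Fsk tdTomato+ cells and DMSO eGFP+ cells differ in both reporter and treatment. Again 0 of the 37 genes were called by edgeR, against 1.36% of all tested genes, and 4 had an unadjusted p below 0.05 (Epas1 higher, Slc2a1, Pfkp and Adm lower), against 11.9% of all tested genes. DESeq2 and limma-voom called 0. With no filter on low counts edgeR called 2, Pfkp and Slc2a1, and 800 of all genes. With the replicate number as a block it called 4, Adm, Pfkp, Slc2a1 and Ndrg1, all lower, and 820 of all genes. The numbers are not taken as pairing here either. Without the block the standard errors of Adm and Slc2a1 were 1.42 and 0.74, and with it 0.44 and 0.32. Those of Slc2a3 and Gapdh were larger with it. The median of the 37 was -0.31, against -0.01 over all tested genes, and with the block -0.23, against 0.03. By range, 0 genes were wholly higher and 1, Pfkp, was wholly lower, against 6.59% and 5.16% of all tested genes. Of 16 tested cartilage genes 6 were called lower and 11 lay wholly lower, and 2 of 21 cell cycle genes were called higher, and their part was not tested. Pfkp in eGFP+ DMSO libraries had 155.5, 145.5, 89.8 and 93.2 CPM at numbers 1, 3, 4 and 5, all above the 87.3 CPM of the highest tdTomato+ Fsk library (log2 fold change -1.34, SE 0.50, edgeR adjusted p = 0.261). Slc2a1 had 444, 251 and 133 CPM in tdTomato+ Fsk libraries, against 668, 2425, 757 and 281.5 CPM in eGFP+ DMSO libraries. Its log2 fold change of -1.90 (SE 0.74, edgeR adjusted p = 0.295) becomes -1.04 without the eGFP+ DMSO library numbered 3 and -2.42 without the tdTomato+ Fsk library numbered 1. Adm in eGFP+ DMSO libraries had 23.3, 248, 40.1 and 6.09 CPM, and each of the 3 shared numbers had less Adm in the tdTomato+ Fsk library, with differences of -3.29 to -1.26 on the log2(CPM + 0.5) scale. Its log2 fold change was -4.15 (SE 1.42, edgeR adjusted p = 0.212), or -2.38 without the eGFP+ DMSO library numbered 3 and -5.31 without the tdTomato+ Fsk library numbered 1. Ndrg1 had 112, 32.7 and 13.2 CPM in tdTomato+ Fsk libraries, against 135, 176, 108 and 29.4 CPM in eGFP+ DMSO libraries, with overlap (log2 fold change -1.09, SE 0.77, edgeR adjusted p = 0.667), and the estimate is -2.29 without the tdTomato+ Fsk library numbered 1. Ankrd37 had 13.3, 9.44 and 4.21 CPM in tdTomato+ Fsk libraries, against 76.9, 16.1, 14.2 and 2.68 CPM in eGFP+ DMSO libraries, and its estimate of -1.61 is -0.29 without the eGFP+ DMSO library numbered 1. The Epas1 estimate of 1.92 (SE 0.68, edgeR adjusted p = 0.228) is 0.54 without the tdTomato+ Fsk library numbered 1. Pfkm, the muscle-type phosphofructokinase, had 83.3, 50.98 and 44.6 CPM in tdTomato+ Fsk libraries, against 55.2, 42.1, 52.1 and 39.0 CPM in eGFP+ DMSO libraries, with overlap. The estimates for Car9, Pdk1 and Pfkm were 0.78, 0.41 and 0.34, and without the tdTomato+ Fsk library numbered 1 they are 0.25, 0.12 and 0.03. Both comparisons with Fsk use the same 3 Fsk libraries.

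Among DMSO cells, tdTomato+ against eGFP+ asks how the isolated populations differ. By edgeR, 0 of the 37 genes were called, against 0% of all tested genes, and 0 of the 37 had an unadjusted p below 0.05, against 1.37% of all tested genes. DESeq2 and limma-voom also called 0 of the 37. The median of the 37 was -0.13, against 0.02 over all tested genes, and with the replicate number as a block -0.16, against 0.04. Pfkfb4 alone did not overlap, at 4.48, 12.6 and 4.51 CPM in tdTomato+ DMSO libraries, against 3.03, 4.03, 3.64 and 4.44 CPM in eGFP+ DMSO libraries (1 of 37 wholly higher and 0 wholly lower, against 1.6% and 1.15% of all tested genes). Its log2 fold change was 0.92 (SE 0.50), and 0.25 without the tdTomato+ DMSO library numbered 3. Higd1a, which encodes a mitochondrial protein of the hypoxia response, had 220, 209 and 105 CPM in tdTomato+ DMSO libraries, against 404.5, 456, 283 and 154 CPM in eGFP+ DMSO libraries. It was lower in tdTomato+ cells in all 3 shared numbers, with differences of -1.13 to -0.55 on the log2(CPM + 0.5) scale, though the groups overlap (log2 fold change -0.87, SE 0.42, 95% interval -1.77 to 0.04). With the replicate number as a block its log2 fold change was -0.80 (SE 0.27, 95% interval -1.40 to -0.21, edgeR adjusted p = 0.835). Ankrd37 was also lower in tdTomato+ cells at each shared number, with differences of -1.42 to -0.16 on that scale (log2 fold change -1.13, SE 0.95). With the block its log2 fold change was -1.02 (SE 0.44). Without the eGFP+ DMSO library numbered 1 the estimate is 0.20, in a fit with no block that keeps the tdTomato+ DMSO library numbered 1. Those of Slc2a1 and Adm, -0.64 and -0.60, turn to 0.22 and 1.18 without the eGFP+ DMSO library numbered 3. Epas1 (0.57), Ddit4 (0.52) and Hk1 (0.43) had the next largest positive estimates, with standard errors of 0.68, 0.65 and 0.43. The Ddit4 estimate is -0.19 without the tdTomato+ DMSO library numbered 3, and 0.16 (SE 0.27) with the block and all libraries. Ddit4 had 93.0, 177 and 28.1 CPM in tdTomato+ DMSO libraries, against 65.8, 133, 47.2 and 30.7 CPM in eGFP+ DMSO libraries. Hk1, the hexokinase of most tissues, had 165, 115 and 84.5 CPM in tdTomato+ DMSO libraries, against 100.2, 107, 73.8 and 81.0 CPM in eGFP+ DMSO libraries. Both genes overlapped between the groups. With the block, 0 of the 37 were called by edgeR and 2, Higd1a and Ankrd37, had an unadjusted p below 0.05, while 14 of all tested genes (0.0866%) were, against 0 without it.

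Among the related genes outside the 37, few passed in the group comparisons. For Fsk tdTomato+ against DMSO eGFP+ cells, Stc1, the gene of the secreted hormone stanniocalcin, rose (log2 fold change 3.98, SE 0.77, edgeR adjusted p = 0.0239), and Cox4i2, an isoform of a cytochrome c oxidase subunit known to respond to oxygen, fell (log2 fold change -2.94, SE 0.55, edgeR adjusted p = 0.0195). They were 2 of 57 tested hypoxia-related genes, and 0 of 44 genes of further glucose metabolism passed, where 3 had an unadjusted p below 0.05 and the extremes were Fbp2 (1.75) and Pygl (-2.07). Trf, the transferrin gene, had the lowest estimate of the hypoxia-related genes, -3.85, without passing. For Fsk against DMSO in tdTomato+ cells 0 of either list passed by edgeR, and 4 and 11 genes had an unadjusted p below 0.05. The largest estimates there were those of Fbp1 (2.85) and Stc1 (2.56), and the lowest those of Pygl (-2.15) and Nos2 (-5.73). Among DMSO cells also 0 passed, 1 and 0 having an unadjusted p below 0.05, with Gpd1 (0.57), Nos2 (3.14), Fbp1 (-2.89) and Trf (-2.38) at the extremes.

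Shares of isozymes were taken of the family's reads per kilobase of exon. The exon length merges all annotated exons of a gene, and the shares depend on it. Pfkp made up 6.23%, 4.76% and 4.11% of the 3 phosphofructokinase genes in tdTomato+ Fsk libraries, against 10.7%, 21.5% and 12.3% in tdTomato+ DMSO libraries and 9.80%, 18.2%, 11.2% and 15.2% in eGFP+ DMSO libraries. The highest Fsk share is below the lowest share of either DMSO group. Pfkl held 55.0% to 76.3% in every library and Pfkm 13.9% to 38.1%. Hexokinase was divided nearly evenly, with Hk1 at 37.6% to 60.7%. Slc2a1 held 88.5% to 99.1% of the transporter pair, Aldoa 96.1% to 99.2% of the aldolases and Eno1 97.4% to 99.6% of the enolases, and Bnip3 61.5% to 76.6% of its pair with Bnip3l. Pfkfb3 held 85.7% to 95.95% of its pair with Pfkfb4.

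**Figure D4:**
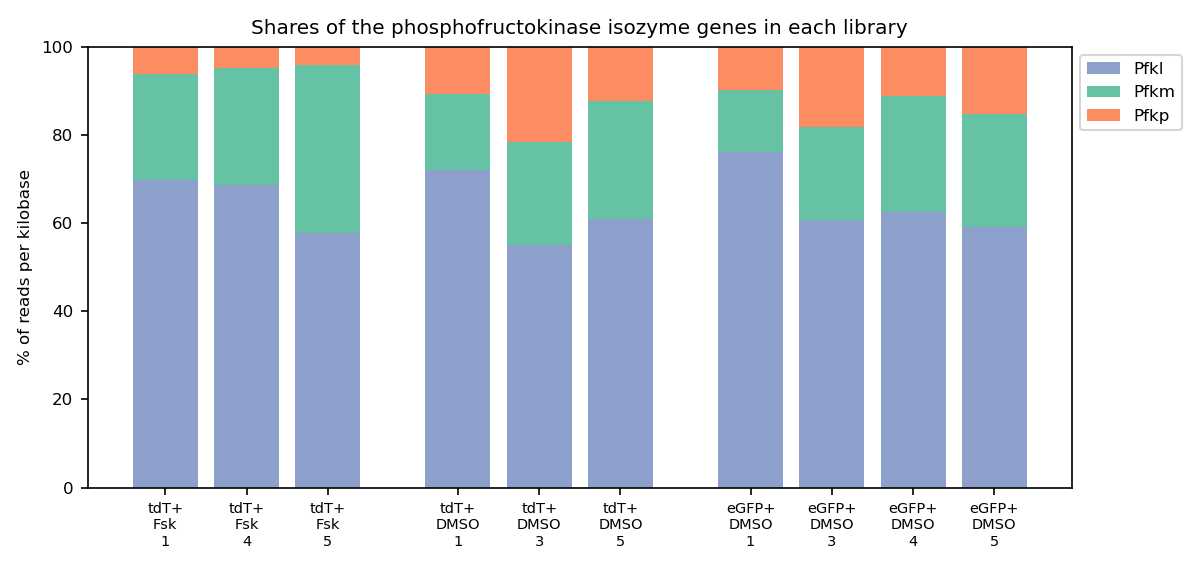
Shares of Pfkl, Pfkm and Pfkp in the summed reads per kilobase of the 3 phosphofructokinase genes, in percent, with 1 bar per library labelled by group and replicate number. The Pfkp segment is 4.11% to 6.23% in tdTomato+ Fsk libraries and at least 9.80% in every DMSO library.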

How the data were processed

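Poly(A) RNA of 10 libraries was measured. The authors deposited 1 table of raw read counts per gene. The submitters' processing notes name mm10 as genome build; aligner, counting program and strand setting were not stated in what was read. Groups and replicate numbers came from the sample titles. In edgeR 4.0.16 (R 4.3.3), genes were kept by filterByExpr, scaled by TMM and fitted with quasi-likelihood models over all 10 libraries, with group alone or, for number 5 against 1, group and number (7 and 4 residual degrees of freedom). P-values were adjusted over 16169 genes at 0.05; standard errors are the log2 fold change over the square root of F. Replicates differed beyond counting noise (chi-square per degree of freedom at least 89.3). Tests were run on simulated data first.

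Same-numbered tdTomato+ and eGFP+ DMSO libraries deviated together from their group means (r = 0.617 to 0.672), so numbers were taken as pairing there, from the data and not the labels. GENCODE M21 gave coordinates and exon lengths (all annotated exons of a gene merged), RefSeq the promoters, and blastn 2.17.0 the copies (at least 90% identity over 200 bases). Alternatives were DESeq2 1.42.0, limma-voom (limma 3.58.1), RLE factors, library totals, 2 other filters, the 2 groups alone, DMSO libraries alone, the replicate block, each library left out and, chosen after seeing the data, only libraries numbered 1 and 5, and the table less ribosomal RNA and mitochondrially encoded genes.

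The 37 genes, the lists and the tests were chosen with earlier results of these data known. Values per library are given for genes past the threshold in a group comparison with or without the block, for the 4 highest and 4 lowest estimates of each, for Hif1a, Epas1, Vegfa, Slc2a1, Pdk1 and Ldha, and for the 3 most abundant per kilobase. For some of these genes not every library is printed. Other genes were named after their values were seen.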

Additional observations from a re-analysis of the deposited data

Results flagged for a closer look

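In the 4 eGFP+ DMSO libraries, 3 of the 37 genes had 1 library whose gap to the nearest of the others, divided by the range of the group, exceeded the critical value of Dixon's test. Chance alone gives this for about 1 in 20 groups. Pfkl had 603 CPM in the library numbered 1, against 180.5 to 249.2 CPM in the other 3. Vegfa had 613.7 CPM in the library numbered 3, against 279 to 299.6 CPM in the others. Adm had 248.4 CPM in the library numbered 3, against 6.09 to 40.1 CPM in the others. In tdTomato+ DMSO cells, the library of the same number was also the highest of its group for each of these 3 genes.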

How the results depend on the processing

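The calls of number 5 against 1 changed most in number: 21 of the 37 genes passed, 27 by DESeq2 and with no filter on low counts, 25 by limma-voom, 23 in DMSO libraries alone, 12 with library totals, 14 with only libraries numbered 1 and 5, and 6 to 25 with 1 library left out. Over all genes 863 passed, against 1957 by DESeq2, 1324 by limma-voom, 1754 with no filter on low counts, 2585 in DMSO libraries alone and 110 to 3631 with 1 library left out (the lowest without tdTomato+ DMSO number 5, the highest without tdTomato+ Fsk number 1). With Fsk in tdTomato+ cells, 92 genes passed, against 535 by DESeq2, 34 with library totals, 462 with no filter, 260 with the 2 groups alone, 508 with the replicate block and 22 to 174 with 1 library left out. Of the 37, 0 passed there, with 1 by DESeq2 (Pfkfb4), 1 with no filter (Pfkp) and 2 with the block, Pfkp (log2 fold change -1.44, edgeR adjusted p = 0.0277) and Adm (-2.16, adjusted p = 0.0229). For tdTomato+ Fsk against eGFP+ DMSO cells, 220 genes passed, against 805 by DESeq2, 116 with library totals, 800 with no filter, 820 with the block and 51 to 469 with 1 library left out. Of the 37, 0 passed there, with 2 under no filter (Pfkp and Slc2a1) and 4 with the block, Adm (-2.79), Pfkp (-1.41), Slc2a1 (-1.20, edgeR adjusted p = 0.0499) and Ndrg1 (-1.06). Same-numbered libraries correlated at 0.128 and 0.373 in the first of these comparisons and at 0.0771 to 0.421 in the second, where other numbers reached 0.271 and 0.249, so the numbers are not taken as pairing there. Among DMSO cells 0 genes passed, against 14 by DESeq2, 18 with no filter and 14 with the block, which changed no call of the 37, and 0 with 1 library left out.

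With 1 library left out, the estimates spanned -2.55 to 0.20 for Ankrd37, -1.17 to 0.22 for Slc2a1, -2.38 to 1.18 for Adm and -0.19 to 1.05 for Ddit4 among DMSO cells, and -3.98 to 1.26 for Gapdh and -0.027 to 1.80 for Epas1 for Fsk in tdTomato+ cells. These fits had group as the only term, so that leaving out a DMSO library kept any library of its number in the other DMSO group. The cause of these changes was not tested. Depth limits Adm, Epas1 and Pfkfb4, whose lowest libraries held 7, 11 and 27 reads.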
